A study of Mus musculus with 6 samples.

Results

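The rows described here are the 233 rows of the count table, of 61949 in all, that carry the Rfam names of the spliceosomal RNAs U4, U5, U6, U11 and U12 and hold at least 100 counts summed over the 6 libraries. They were selected on their names and on that sum, which does not use the group labels. A row with few counts in either group could still reach the limit through the counts of the other group. U6 gave 208 rows, U4 gave 11, U5 gave 7, U12 gave 4 and U11 gave 3. U4atac and U6atac, the other RNAs of the rule, had no row with 100 counts. The table lists 677 rows for the 7 families, and the U6 rows on either side of the limit held 97 and 98 counts or 100 and 102 counts.

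Small RNA was sequenced from extracellular vesicles (EVs) released by cultured primary cells of wild-type CD1 mice. Astrocyte EVs (n = 3 libraries) came from cortical astrocytes, which the study's methods take from P4 pups, and NSC EVs (n = 3) from neonatal neural stem cells (NSCs) grown out of the subventricular zone. EVs were the P100 fraction, the pellet of the last and fastest step of serial centrifugation. No source used here says how many pups or cultures stand behind a library, so p-values measure the spread between these libraries, which may be technical. Libraries held 44218109 to 111276337 counts outside miRNA hairpin rows, with 22.7% to 53.8% of them in tRNA rows, and the TMM scaling factors ran from 0.488 to 1.43. In EVs, fewer vesicles that carry an RNA and less of that RNA per vesicle cannot be told apart.

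The spliceosome removes introns from pre-mRNA. U6 arrives paired with U4 and joined to U5 as the tri-snRNP, U4 is then released, U6 forms the catalytic core with U2, and a conserved loop of U5 holds the exons. A minor spliceosome removes a rare class of introns with U11, U12, U4atac and U6atac in the places of U1, U2, U4 and U6, and shares U5. U6 is made by RNA polymerase III and binds LSm proteins, the others are made by RNA polymerase II and carry a ring of Sm proteins. These RNAs work in the nucleus, and the mouse genome holds many copies of their genes, most of them pseudogenes.

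Among the 5 families U11 separated the EV types most, with a summed level 13.0-fold higher in NSC EVs than in astrocyte EVs. Levels are in CPM (counts per 1000000 counts of the library). On the same measure U2 and U1, which are outside the members, were 14.5-fold and 7.72-fold higher in NSC EVs. These levels are not TMM-scaled and include a shift of the whole table. Without TMM the median log2 fold change of all rows, astrocyte EVs minus NSC EVs, was -0.54. In TMM-scaled CPM the main U11 row averaged 2.22 in astrocyte EVs and 19.8 in NSC EVs. All 3 U11 rows passed the test, and 2 of the 208 U6 rows did. No row of U4, U5 or U12 passed, and no member was called higher. Across the whole table, edgeR's quasi-likelihood test called 1750 of 41308 rows lower in astrocyte EVs (4.24%) and 2290 higher (5.54%). The members called lower were 5 of 233 (2.15%), a smaller share than the background. That order depended on the scaling and the filter: without TMM 13.7% of members and 7.79% of all rows were lower (3219 rows lower and 738 higher), on mature miRNA totals 6.93% and 3.72%, and without a low-count filter 5.15% and 4.29%. The median log2 fold change of the members was -0.06, beside -0.04 over all rows tested. With rows of the same counts taken once it was -0.38 beside -0.06, without astrocyte EV replicate 1 it was -0.64 and without astrocyte EV replicate 3 it was 0.28, so the median of the members had no stable sign. At an unadjusted p under 0.05, 26 members (11.2%) were lower, beside 14.4% of all rows, and 0 were higher, beside 14.8% of all rows. DESeq2 also called 0 members higher, beside 10.2% of all rows. In TMM-scaled CPM, all 3 astrocyte EV libraries lay below all 3 NSC EV libraries for 17 members (7.30%), beside 16.7% of all rows, and above them for 0 members, beside 17.2% of all rows.

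**Figure D1:**
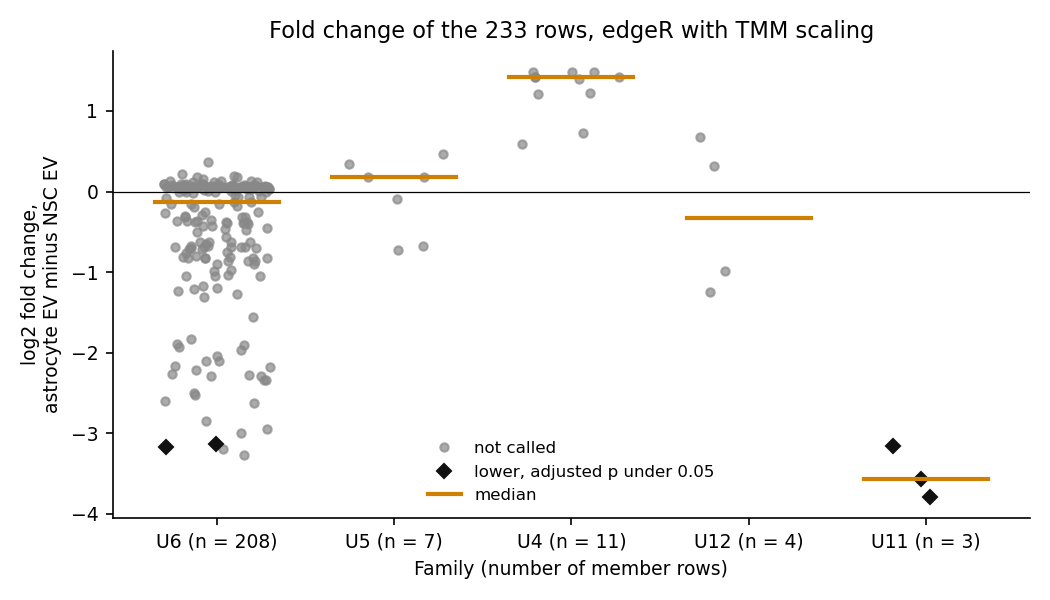
Log2 fold change of each of the 233 rows (vertical axis, astrocyte EV minus NSC EV, edgeR with TMM scaling) by family. Diamonds are the 5 rows called lower, orange lines are family medians, and the 3 U11 rows lie between -3.79 and -3.16 while the U4 rows all lie above 0.

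The members are not 233 separate RNAs. They hold 161 distinct sets of 6 counts, and 94 members share all 6 counts with another member, as nearly all exact copies of Rnu6 do. GENCODE places a small nuclear RNA at exactly the start, end and strand of 231 members. Of all members, 135 lay between genes, 55 in an intron and 2 in an exon of a gene on the opposite strand, and 39 in an intron and 2 in an exon of a gene on the same strand, where reads of the host transcript and of the copy share a position.

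U11 base-pairs with the start of minor-class introns, as U1 does for the major class. Its main row is Rnu11 (U11:RF00548.1, GRCm38 chr4:132270080-132270213, minus strand), which lies opposite an exon of Gm28872. The other rows are Gm22472 (U11:RF00548.4, chrX:101242738-101242871, plus strand, between genes) and Gm24890 (U11:RF00548.2, chr14:70428496-70428597, minus strand, in an intron of Piwil2). Rnu11 and the X-linked copy are printed from GENCODE vM21 to show how far the copy departs from the gene. They differ in 15 places over 134 bases (88.8% identity) and share long runs of bases. Reads from these runs could be counted on both rows, so the U11 rows may not be separate results. Capitals mark the run AATTTTTTG, of the kind that Sm proteins bind, which was searched on the transcript's own strand and is held by 1.08% of the 1383 small nuclear RNA transcripts of that annotation.
Rnu11: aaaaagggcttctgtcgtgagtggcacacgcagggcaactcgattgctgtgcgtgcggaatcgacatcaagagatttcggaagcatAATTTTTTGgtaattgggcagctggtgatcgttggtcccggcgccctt
Gm22472: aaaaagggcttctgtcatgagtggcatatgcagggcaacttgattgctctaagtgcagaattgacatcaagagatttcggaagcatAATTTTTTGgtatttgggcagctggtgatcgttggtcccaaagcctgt

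Rnu11 held 102, 147 and 263 counts in the astrocyte EV libraries and 1819, 524 and 1057 in the NSC EV libraries, although the astrocyte EV libraries were deeper. The groups did not overlap. In TMM-scaled CPM, the mean of Rnu11 and its SD over 3 libraries were 2.22 ± 0.31 for astrocyte EVs and 19.8 ± 11.8 for NSC EVs. The fitted log2 fold change of Rnu11 was -3.16 with a standard error (SE) of 0.51 (adjusted p = 0.0169, edgeR's quasi-likelihood test with Benjamini-Hochberg adjustment). Gm22472 held 3, 9 and 7 counts in astrocyte EVs and 82, 42 and 82 in the other group, which fitted as -3.79 on the log2 scale (SE 0.58, adjusted p = 0.0162, edgeR). Gm24890 held 2, 9 and 2 counts against 45, 25 and 61, or -3.57 on the log2 scale (SE 0.81, adjusted p = 0.0340, edgeR). All 3 rows were thus lower in every astrocyte EV library than in any NSC EV library. Rnu11 held more than 100 counts in every library. Gm22472 and Gm24890 reached the limit of 100 counts only through their NSC EV counts, so their place among the members depended on their level there. The X-linked copy gave 0.027 to 0.061 counts per count of Rnu11 among astrocyte EV libraries and 0.045 to 0.080 among NSC EV libraries, ranges that overlapped. Leaving out astrocyte EV replicate 1, astrocyte EV replicate 2 or NSC EV replicate 3 ended all 3 calls, with log2 fold changes of Rnu11 of -3.25, -3.22 and -3.20 and adjusted p of 0.0623, 0.0735 and 0.0534 in edgeR. The call of Gm24890 was also lost on leaving out the third astrocyte EV library (adjusted p = 0.0510, edgeR) or the first NSC EV library (0.0663), and with a replicate block (0.0814). In the cases that ended all 3 calls few rows of the whole table passed either, 0 without either of the astrocyte EV libraries and 14 lower and 4 higher without NSC EV replicate 3.

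U12 pairs with the branch site of minor-class introns, as U2 does for the major class, and joins the intron together with U11. Its main row is Rnu12 (U12:RF00007.6, chr15:83149644-83149794, plus strand, between genes), and the next is a copy, Gm24525 (U12:RF00007.2, chr5:7177706-7177856, minus strand), in an intron of Zfp804b and 96.0% identical. Rnu12 is printed as the partner against which U11 is read below, with its run AATTTTTG in capitals (19 of the 1383 transcripts, 1.37%, hold these letters).
Rnu12: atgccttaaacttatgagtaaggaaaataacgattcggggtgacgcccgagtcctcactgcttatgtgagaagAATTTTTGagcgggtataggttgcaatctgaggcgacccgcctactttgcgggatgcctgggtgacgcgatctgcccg

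Rnu12 held 394, 319 and 635 counts in astrocyte EVs and 1144, 472 and 549 in NSC EVs. The log2 fold change of Rnu12, -0.98 with an SE of 0.47, did not pass the test (adjusted p = 0.204, edgeR). Gm24525 held 305, 233 and 590 counts against 1123, 454 and 512, which fitted as -1.25 on the log2 scale (SE 0.47, adjusted p = 0.120, edgeR). The other U12 rows, Gm23502 on chromosome 14 and Gm25703 on chromosome 2, had fold changes of 0.68 and 0.31 (adjusted p = 0.474 and 0.734, edgeR) from 255 and 175 counts. The rows nearest to Rnu12 in count thus had negative values and the less counted copies positive values, and none passed. Summed, the U12 rows held 9.08, 8.37 and 12.4 CPM in the astrocyte EV libraries and 49.1, 22.0 and 21.5 CPM in the NSC EV libraries, without overlap on library totals, while Rnu12 and Gm24525 overlapped after TMM scaling.

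U11 and U12 enter the minor spliceosome as one particle, so their ratio within a library was examined, which needs no scaling between libraries. Rnu11 gave 0.259, 0.461 and 0.414 counts per count of Rnu12 in the astrocyte EV libraries and 1.59, 1.11 and 1.93 in the NSC EV libraries. The groups did not overlap, and the mean ratio was 4.08-fold higher in NSC EVs (1.54 ± 0.41 against 0.378 ± 0.106, SD, n = 3 each). With all rows summed, the log2 ratio of U12 to U11 was 2.36 ± 0.50 for astrocyte EVs and 0.28 ± 0.43 for NSC EVs, a difference of 2.07 that stayed between 1.82 and 2.32 when each library was left out. U11 therefore differed between EV types in its count relative to U12 as well as relative to the library. These ratios were described and not tested.

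The RNAs of the minor spliceosome that stand in for U4 and U6 were hardly counted. The single U4atac row (U4atac:RF00618.1, chr1:118459141-118459265, minus strand) held 0, 5 and 15 counts in astrocyte EVs and 17, 19 and 7 in NSC EVs. The U6atac row with most counts (U6atac:RF00619.25, chrX:113332100-113332225, minus strand) held 0, 0 and 0 counts in astrocyte EVs and 9, 36 and 17 in NSC EVs. The astrocyte EV libraries were without a count on this row, and 3 counts, the limit that a count of 0 allows, come to 0.027 to 0.042 CPM there. The next row, U6atac:RF00619.7, held 3, 0 and 36 counts against 2, 0 and 4. Over all its rows U6atac held 15, 1 and 44 counts against 18, 57 and 21, so the family as a whole did not separate the groups. Per count of U4atac this was 0.200 and 2.93 in astrocyte EV replicates 2 and 3 and 1.06, 3.0 and 3.0 in the NSC EV libraries, with no ratio for the library without a U4atac count. These rows fall outside the members and were named after their values were seen.

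The U4, U5 and U6 families showed no common direction. The summed U6 rows held 148, 161 and 132 CPM in astrocyte EVs and 152, 341 and 332 CPM in NSC EVs, so NSC EV replicate 1 lay among the astrocyte EV libraries and the other NSC EV libraries above all of them. The U5 rows held 24.8, 29.5 and 25.3 CPM against 44.5, 42.4 and 35.7 CPM, without overlap. The U4 rows held 11.1, 12.5 and 26.0 CPM against 19.6, 5.88 and 5.57 CPM, with wide overlap. These sums repeat counts that rows share, and on library totals they move with the tRNA share. The log2 ratio of U5, astrocyte over NSC EVs, was -0.62 per library total, 0.13 without tRNA and rRNA rows in the total, 0.06 per mature miRNA count and 0.07 on TMM-scaled totals. The direction of U5 thus depended on the scaling, while U11 kept its sign on each of them.

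**Figure D2:**
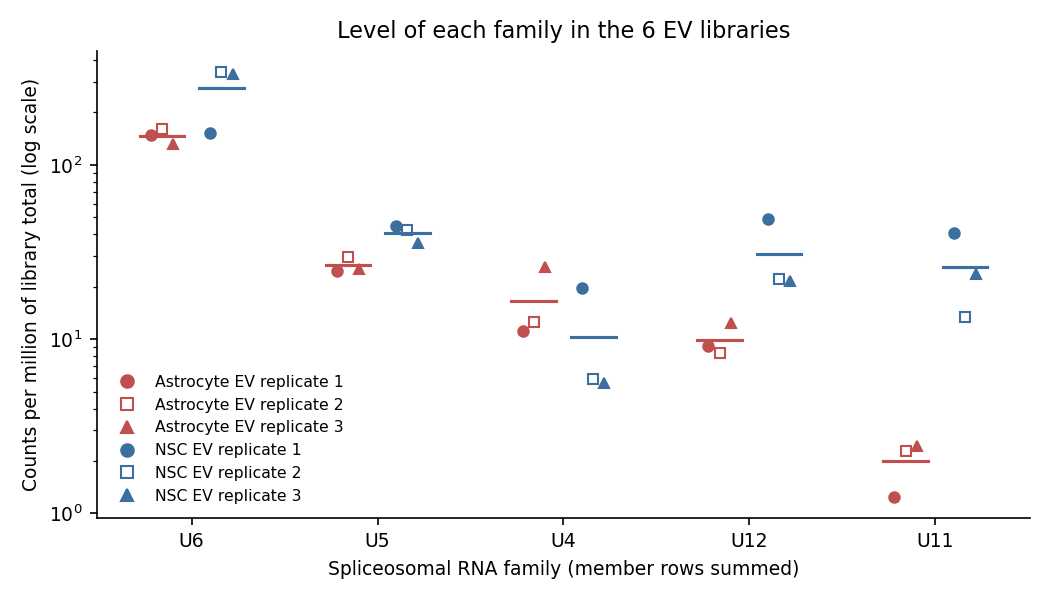
Summed counts of the member rows of each family in CPM of the library total (vertical axis, log scale), 1 symbol per library and a line at the mean of 3. U11 is 1.25 to 2.44 CPM for astrocyte EVs and 13.4 to 40.7 CPM for NSC EVs, the widest separation among the 5 families.

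U6 carries the ACAGAGA box, which pairs with the start of the intron at the catalytic core. The first 3 rows by count were exact copies of Rnu6 on chromosomes 3, 10 and 6 (U6:RF00026.146, U6:RF00026.541 and U6:RF00026.318), with log2 fold changes of 0.05 to 0.09. There were 43 rows with all 107 bases of Rnu6, and their median counts were 104, 114 and 133 in astrocyte EVs and 54, 103 and 134 in NSC EVs. Within a library the exact copies differed by at most the 151 counts against 133 of one row in astrocyte EV replicate 3. They cannot be told apart by these reads, and they had hardly any difference between EV types after scaling.

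The remaining U6 rows departed from Rnu6 by 1 base or more, and their fold changes reached further down than up. The 43 rows with 1 difference ran from -2.33 to 0.11 on the log2 scale (median -0.15), the 70 rows with 2 to 5 differences from -3.20 to 0.37 (median -0.41), the 31 with 6 to 10 differences from -3.27 to 0.22 (median -0.32) and the 21 with more than 10 from -3.14 to 0.09 (median -0.57). The rows called lower were Gm26176 (U6:RF00026.393, chr7:73645985-73646089, minus strand, 11 differences) and Gm24319 (U6:RF00026.875, chr19:15680004-15680110, plus strand, 6 differences), both between genes. Gm26176 held 7, 1 and 8 counts in astrocyte EVs and 13, 54 and 47 in NSC EVs (log2 fold change -3.14, SE 0.82, adjusted p = 0.0491, edgeR). Gm24319 held 7, 2 and 3 counts against 21, 58 and 22 (log2 fold change -3.18, SE 0.83, adjusted p = 0.0492, edgeR). Both calls stand close to the threshold and were lost under the replicate block, under a test against a 2-fold change and without most single libraries. Gm26176, Gm24319 and the lowest row of each range above reached the count limit of the members only through their NSC EV counts. The downward reach of these U6 rows thus depended in part on rows admitted by their level in NSC EVs.

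The copies with 1 substitution bear on where along U6 the counts lie. A copy that differs from Rnu6 at a single base shares every read that does not cross that base, and loses those that cross it wherever mismatched reads are not counted on it. The sources used here do not say how the authors treated mismatches. There are 40 such rows, at 22 different bases, and each was expressed as a percentage of the median count of the exact copies in the same library. Positions are counted from 1 at the 5′ end of Rnu6, with the base of Rnu6 first and that of the copy last. The box takes bases 41 to 47, and 42.2% of the 1383 transcripts hold its intact letters. A copy on the X chromosome, U6:RF00026.916, differs in the last base of the box, A47T.

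The A47T copy held 13, 11 and 9 counts in astrocyte EVs, which is 12.5%, 9.65% and 6.77% of the exact copies. In NSC EVs it held 24, 51 and 75 counts, which is 44.4%, 49.5% and 56.0%. The groups did not overlap, and neither did the 95% Wilson intervals, which cover counting error only: the highest upper bound among astrocyte EV libraries was 20.2% and the lowest lower bound among NSC EV libraries was 32.0%. The copy with a changed base 47 thus lacked most of the counts of Rnu6 in astrocyte EVs and about as many as it kept in NSC EVs. Its own log2 fold change was -2.33, with an adjusted p of 0.0651 in edgeR.

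Copies with a change further along gave the same order. The G54T copy kept 18.3%, 6.14% and 9.02% in astrocyte EVs against 51.9%, 69.9% and 54.5% in NSC EVs. The C63T copy kept 26.9%, 7.02% and 11.3% against 42.6%, 88.3% and 59.7%, and the C66T copy 52.9%, 28.9% and 50.4% against 64.8%, 88.3% and 66.4%. For each of these bases all astrocyte EV libraries lay below all NSC EV libraries, with NSC EV replicate 1 the nearest to them at base 63. At base 37, on the other side of the box, a C37T copy (U6:RF00026.320) kept 26.9%, 14.0% and 14.3% against 40.7%, 28.2% and 38.8%, a narrower gap.

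Towards the ends of U6 the groups came together. The C14T copy kept 58.6% to 80.7% among astrocyte EV libraries and 59.7% to 100% among NSC EV libraries, and the C25T copy 42.9% to 56.1% against 38.8% to 73.8%. At base 80 the G80C copy kept 74.6% to 88.7% against 81.5% to 88.8%, and at base 107 the T107G copies kept 100% in every library. Counts missing from the copies changed at bases 47 to 63 thus made up most of the exact-copy counts in astrocyte EVs and a smaller part in NSC EVs. The dip was wider than these bases in both groups. On average the G34A copies kept 20.9% against 43.3%, and the C37T copy named above 18.4% against 35.9%. Whether the missing counts are reads that cross the changed base depends on how mismatches were counted, which is not known. The bases were compared after their values were seen, the copies share reads with each other, and no test was made. The ACAGAGA letters were intact in 201 of the 208 U6 rows (median log2 fold change -0.07), and the 7 rows without them, A47T included, had a median of -2.33. The rows with the letters include the 43 exact copies, which nearly all repeat the same counts. Each of the 7 rows without them passed the limit of 100 counts only with its NSC EV counts. These medians therefore do not relate the box to the EV type.

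**Figure D3:**
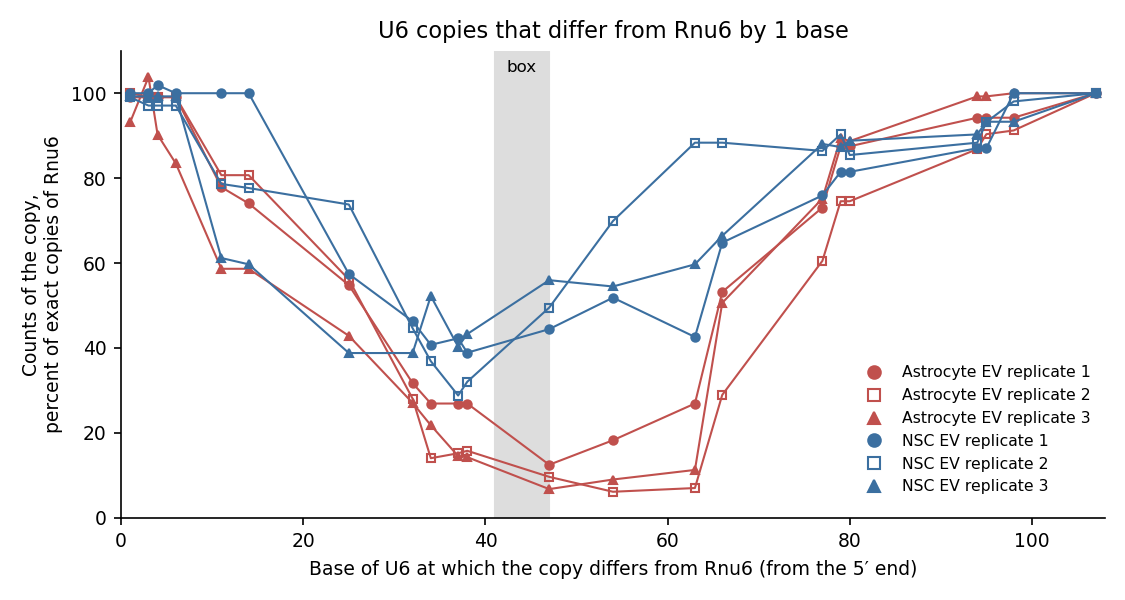
Counts of U6 copies that differ from Rnu6 by 1 base, as a percentage of the exact copies (vertical axis), against the base that differs (horizontal axis, from the 5′ end), with 1 line per library, rows at the same base averaged and the box shaded. The astrocyte EV lines lie at 6.14% to 26.9% from base 47 to base 63, where the NSC EV lines lie at 42.6% to 88.3%, and the lines come together at both ends.

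U4 holds U6 inactive until the spliceosome is activated. Full-length U4 is given by Gm24265 (U4:RF00015.14, chr5:115489459-115489599, plus strand) and its neighbour Gm24407 (U4:RF00015.15, 2 differences), both between genes. The remaining rows with a sequence are copies that first differ from the full-length row after a shorter stretch from the 5′ end, the shortest being that of Gm26254 (U4:RF00015.7, chr4:31998624-31998741, minus strand), in an intron of Map3k7 on the opposite strand. The 9 U4 rows with a GENCODE sequence have the first 21 bases in common, which are in capitals in the full-length row and in this copy.
Gm24265: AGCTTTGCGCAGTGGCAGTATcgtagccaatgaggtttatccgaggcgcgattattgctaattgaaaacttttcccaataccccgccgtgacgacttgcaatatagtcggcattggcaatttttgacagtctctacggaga
Gm26254: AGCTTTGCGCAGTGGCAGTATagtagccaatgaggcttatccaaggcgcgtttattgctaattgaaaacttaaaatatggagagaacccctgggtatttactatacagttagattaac

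Gm24265 held 119, 117 and 367 counts in astrocyte EVs and 118, 68 and 70 in NSC EVs (log2 fold change 0.73, SE 0.37, adjusted p = 0.228, edgeR). Gm24407 held 116, 115 and 347 against 127, 89 and 59 (0.59 on the log2 scale, adjusted p = 0.336, edgeR), and the third row by count, Gm22122 (U4:RF00015.18), held 85, 76 and 242 against 85, 22 and 17 (1.21, adjusted p = 0.234, edgeR). No U4 row passed the test, and the 11 fold changes ran from 0.59 to 1.48. NSC EV replicate 1 had as many U4 counts as the astrocyte EV replicates of lower count, and without it 9 U4 rows passed the test as higher in astrocyte EVs. They were 3.86% of the members, beside 971 of 43565 rows (2.23%) over the whole table in that fit. The U4 rows other than Gm24265 and Gm24407 hold nearly the same astrocyte EV counts, so these calls are not separate results.

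The U4 copies were compared by the share of the counts of the full-length row that they kept. Gm26254 also matches Gm24265 in runs of bases beyond the first 21. Counts common to both rows therefore cannot be placed within those 21 bases. Gm26254, which first differs from Gm24265 after 21 bases, kept 66.4%, 63.2% and 65.9% of the counts of Gm24265 in astrocyte EVs. In NSC EVs it kept 61.9%, 11.8% and 24.3%. Replicates 2 and 3 of the NSC EVs thus stood far below the astrocyte EV libraries, with upper Wilson bounds of 21.5% and 35.5% against a lowest lower bound of 54.2%, while the interval of NSC EV replicate 1 (52.9% to 70.1%) overlapped all of them. The difference between the counts of Gm24265 and Gm26254 was 0.467, 0.597 and 1.12 CPM in astrocyte EVs and 0.942, 1.36 and 1.05 CPM in NSC EVs, which overlapped. Gm26254 itself was at 0.922, 1.03 and 2.17 CPM against 1.53, 0.181 and 0.336 CPM, with NSC EV replicate 1 among the astrocyte EV libraries and the other NSC EV libraries below all of them. Rows that follow Gm24265 for 25 to 61 bases kept 63.2% to 71.4% in the astrocyte EV libraries, 64.4% to 72.0% in NSC EV replicate 1 and 24.3% in NSC EV replicate 3. In NSC EV replicate 2 the share was 13.2% at 25 bases and 32.4% at 61 bases, from 9 and 22 counts.

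**Figure D4:**
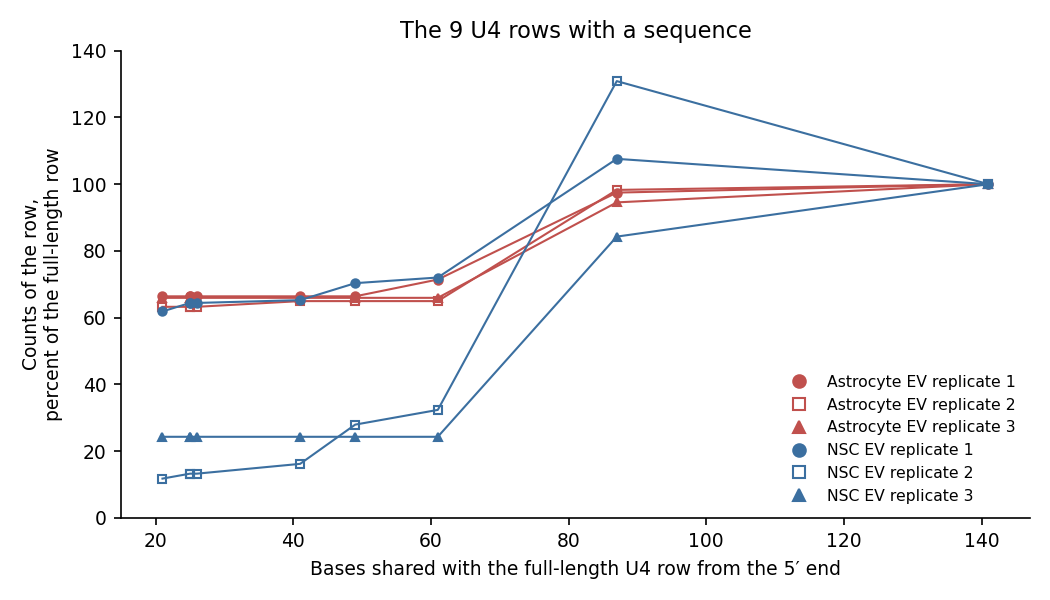
Counts of each of the 9 U4 rows with a sequence, as a percentage of the full-length row Gm24265 (vertical axis), against the bases it shares with that row from the 5′ end (horizontal axis), 1 line per library. Up to 61 bases the astrocyte EV libraries and NSC EV replicate 1 stay between 61.9% and 72.0%, and NSC EV replicates 2 and 3 between 11.8% and 32.4%.

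U5 presents the exons to each other through its loop and serves both spliceosomes. Its 7 rows had 116 bases each and all held the loop letters GCCTTTTAC, which 9 of the 1383 transcripts hold (0.651%). The rows differ mostly near the 3′ end, and Rnu5g (U5:RF00020.7, on chromosome 9 opposite an intron of Parp16) and Gm24871 (U5:RF00020.1, on chromosome 1 in an exon of B930036N10Rik) share their first 70 bases. Their fold changes lay on opposite sides of 0.

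The row with most counts, Gm25313 (U5:RF00020.6, near Rnu5g on chromosome 9), held 618, 713 and 567 counts in astrocyte EVs and 572, 556 and 430 in NSC EVs. Rnu5g held 551, 572 and 540 against 532, 426 and 386. Both had a log2 fold change of 0.18, with SE 0.46 and 0.45 and adjusted p = 0.834 and 0.830 in edgeR, well within their standard errors. Gm25099 (U5:RF00020.3) held 324, 244 and 607 counts against 244, 237 and 247 (log2 fold change 0.35, adjusted p = 0.552, edgeR).

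Gm24871 held 188, 156 and 394 counts against 361, 281 and 296, or -0.73 on the log2 scale (SE 0.34, adjusted p = 0.201, edgeR). Relative to Rnu5g it gave 0.341, 0.273 and 0.730 counts in astrocyte EVs and 0.679, 0.660 and 0.767 in NSC EVs. Astrocyte EV replicate 3 lay among the NSC EV libraries, so the mix of U5 variants did not separate the groups. Gm23287 (U5:RF00020.5), with a fold change of -0.67 (adjusted p = 0.180, edgeR), showed the same overlap at 0.125 to 0.420 against 0.250 to 0.435 counts per count of Rnu5g.

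Within a library, the proportions of the tri-snRNP RNAs were read as well, first on summed rows, which repeat shared counts. Summed U6 counts were 13.3, 12.8 and 5.08 times those of U4 in astrocyte EVs and 7.74, 58.1 and 59.5 times in NSC EVs. U5 counts were 2.23, 2.36 and 0.972 times those of U4 against 2.27, 7.22 and 6.40 times. In both ratios NSC EV replicate 1 fell with the astrocyte EV libraries, and the groups overlapped. The ratio of summed U5 to U6 was 0.168, 0.184 and 0.191 in astrocyte EVs and lay on both sides of these values in NSC EVs, at 0.293, 0.124 and 0.108. On the row with most counts of each family the proportions were far from these. U6 was then 0.87, 0.97 and 0.41 times U4 in astrocyte EVs and 0.46, 1.5 and 1.9 times in NSC EVs. U5 was 5.9, 6.3 and 3.8 times U6 against 10.6, 5.4 and 3.2 times. The sums thus depend on how many copies are counted, and the groups overlapped on these rows too.

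U1 and U2, which bind the intron before the tri-snRNP arrives, served as a reference inside each library. Of their rows with 100 counts or more that passed the low-count filter, 32 of 76 for U1 and 16 of 31 for U2 were called lower in astrocyte EVs, with median log2 fold changes of -1.86 and -1.99 and 0 rows called higher. U11 followed them: its log2 ratio to U1 and U2 summed was -11.1 ± 0.76 for astrocyte EVs and -10.8 ± 0.74 for NSC EVs (SD over 3 libraries), with overlapping groups. U4, U5, U6 and U12 stood higher relative to U1 and U2 in astrocyte EVs, by 4.19, 2.73, 2.54 and 1.81 on the log2 scale. For U4, U5, U6 and U12 the astrocyte EV libraries all lay above the NSC EV libraries. These differences were described without a test and say how the families stand to each other, not which of them changed.

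**Figure D5:**
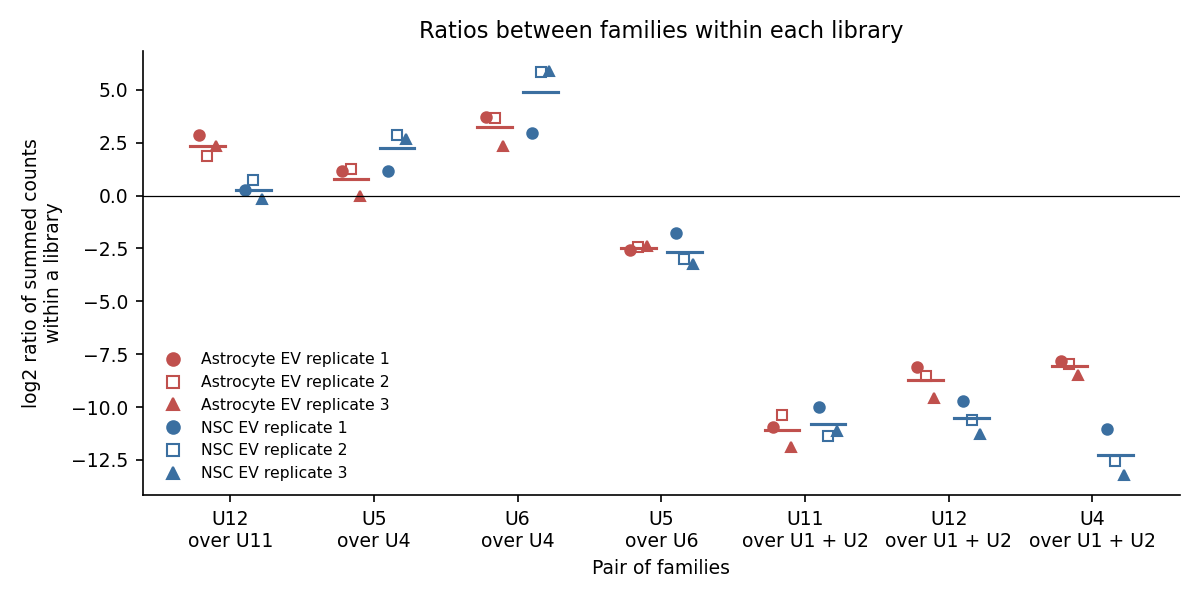
Log2 ratio of the summed counts of pairs of families within each library (vertical axis), 1 symbol per library and a line at the mean of 3. U12 over U11 separates the groups (2.36 against 0.28 on average), U11 over U1 and U2 does not, and NSC EV replicate 1 lies with the astrocyte EV libraries for U5 and U6 over U4.

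Among the mRNAs of the proteins that work with these RNAs, calls went both ways. Of 47 genes listed for the tri-snRNP, Sm and LSm proteins, the minor spliceosome, U6 maturation and snRNP assembly, 45 were tested, 2 were called lower (4.24% of all rows were) and 5 higher (5.54% of all rows), and their median log2 fold change was -0.13. Among 17 tri-snRNP genes 2 were higher, Nhp2l1, which encodes the protein that binds the U4 stem (log2 fold change 1.69, adjusted p = 0.0241, edgeR), and Prpf6, which bridges U5 and U4/U6 (1.60, adjusted p = 0.0250, edgeR). Among 7 Sm genes 1 was lower, Snrpd1 (-1.94, adjusted p = 0.0444, edgeR), and 1 higher. Among 8 minor spliceosome genes 1 was lower, Zrsr2, which recognizes the end of minor-class introns (-1.72, adjusted p = 0.0307, edgeR), and 2 were higher. None of the 4 LSm, 5 U6 maturation and 4 assembly genes tested passed. As sums, the Sm list was 2.52 to 5.49 CPM for astrocyte EVs and 7.44 to 13.9 CPM for NSC EVs, and the assembly list 5.0 to 15.6 against 21.6 to 28.2 CPM, both without overlap on library totals, while the other 4 lists overlapped. Some of these genes had few counts in the small RNA libraries, such as Snrpd1 with 9 to 72 counts per library.

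Other nuclear RNAs and cell type markers were read in the same libraries. Malat1 and Neat1, long RNAs kept in the nucleus, had log2 fold changes of 0.90 and 1.09 (adjusted p = 0.238 and 0.298, edgeR), and of 17 tested 7SK rows 1 was lower and 1 higher, with a median of 0.95. Of the astrocyte markers 2 of 8 were higher in astrocyte EVs, Gfap (1.85, adjusted p = 0.0263, edgeR) and Aldoc, and 0 of 7 tested NSC markers passed. Over all rows 5.54% were higher and 4.24% lower. Slc1a3 and Slc1a2 had negative values (-1.15 and -0.80) and the NSC marker Dlx2 a positive one (1.59), none of them called. The median log2 fold change was 0.15 for the astrocyte list and 0.08 for the NSC list. The summed astrocyte list was 16.2 to 35.8 CPM for astrocyte EVs and 34.9 to 59.5 CPM for NSC EVs, and the NSC list reached 15.8 CPM in the former and 15.2 CPM in the latter, so the lists as sums did not single out the labelled cells. Of the lists for other cells, 1 of 4 fibroblast markers was higher and 1 of 4 neuron markers lower, and 0 of 5 microglia and 0 of 4 oligodendrocyte markers passed. The neuron list, at 60.5 to 136 CPM for astrocyte EVs and 228 to 367 CPM for NSC EVs, lay lower in the same libraries as U11. This sum rested on Rbfox3, the marker that was lower (-1.50, adjusted p = 0.0409, edgeR), and without it the other neuron markers summed to 28.8 to 64.6 CPM against 40.0 to 87.7 CPM, which overlapped. No listed marker was at 0 in all libraries, and the part of other cell types, of the tRNA share or of depth in the U11 difference was not tested.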

How the data were processed

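Small RNA libraries of 3 astrocyte EV and 3 NSC EV samples were compared. The authors deposited whole-number counts for annotated rows on mm10 (GRCm38), without normalization. Trimming (cutadapt), quality (FastQC), alignment (Bowtie2, Bowtie) and counting tools (bedtools, SAMtools) and DESeq are listed in the submitters' processing notes, with no versions. The sources used here do not say how reads with several matches, mismatches or strand were counted. The authors' DESeq tables, which hold group means, fold changes and adjusted p-values, were not used.

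Hairpin rows (788) repeat mature miRNA reads (902 rows) and were left out. edgeR 4.0.16 in R 4.3.3 was run on all other rows with TMM, its default low-count filter by group, the quasi-likelihood test without robust estimation, and Benjamini-Hochberg adjustment over all rows tested, with calls at an adjusted p under 0.05. The common dispersion and a simulated data set were checked. Replicates differed by more than sampling noise, with a chi-square per degree of freedom of at least 101. Family levels are sums of the member rows in CPM of the library total. Sequences and positions come from GENCODE vM21 at the same coordinates, and 2 members had no match. Sequences of U5 and U6 rows are not reported here. Identity is 1 minus the edit distance over the longer length. Shares of counts have 95% Wilson intervals, and a count of 0 allows 3 counts. Intervals cover counting error only.

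Members and lists were chosen with earlier results of these data known. Rows named are the 3 with most counts in each family, the 5 called rows that moved furthest either way without overlap of the groups, those next to the limit of 100 counts, and the called protein genes of lowest p. U6 and U4 copies, Gm24871, Gm23287, the less counted U12 rows, U4atac and U6atac were named after their values were seen. DESeq2 1.42.0, other scalings, filters, a replicate block, a 2-fold threshold and leaving out each library were alternatives. Tables and plots were made with matplotlib 3.10.9, scipy 1.17.1, pandas 2.3.3 and numpy 2.4.6 under Python 3.11.15.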

Additional observations from a re-analysis of the deposited data

How the results depend on the processing

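The same replicate number did not mark paired libraries (correlations of -0.05, -0.004 and -0.12 between the deviations of same-numbered libraries). A replicate block left 2 members lower, with 577 rows lower and 668 higher over the whole table. DESeq2 called 19 members lower (3687 rows lower, 4203 higher), the fit without a low-count filter called 12 lower (2621 of 61161 rows) and the fit on mature miRNA totals 16 (1517 of 40799 rows), and the test against a 2-fold change called 1 (194 rows lower, 255 higher). Without TMM 32 members were lower, with 3219 rows lower and 738 higher, and the median of all rows shifted by -0.50; with mature miRNA totals it shifted by 0.24. Splicing protein rows were then 4 lower and 0 higher without TMM. U11 gave 3 calls in every scaling and filter run. Leaving out each library in turn gave 0 to 4 members lower and 0 to 9 higher, 0 to 1572 rows lower and 0 to 2786 higher, and 0 to 3 splicing protein rows lower and 0 to 6 higher. Calls were 0 for all rows without astrocyte EV replicate 1 or 2, and 14 lower and 4 higher without NSC EV replicate 3. The log2 fold change of Rnu11 stayed between -3.52 and -2.62 in these fits.

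The log2 ratio of the U5 level turned from -0.62 to 0.13 without tRNA and rRNA rows in the totals, 0.065 per mature miRNA count and 0.070 on TMM-scaled totals. That of U6 moved from -0.91 to -0.13 and -0.18 without tRNA and rRNA rows and on TMM-scaled totals. Leaving out a library gave -1.20 to -0.72 for U6, -0.71 to -0.56 for U5, 0.19 to 1.53 for U4, -4.01 to -3.22 for U11 and -1.84 to -1.13 for U12. U6atac and U4atac had no member row, so their ratio was taken over all rows only. The alternatives for the U6 and U4 copies were chosen after the data were seen. The A47T difference, astrocyte EVs minus NSC EVs, stayed between -43.1 and -37.3 percentage points. The same difference in the share of U4 on the row of 21 bases stayed between 22.1 and 47.2 points. It was highest when NSC EV replicate 1 was left out.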
